A study of Mus musculus with 6 samples.

Results

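The 40 genes described here encode heat shock transcription factors, HSP90 chaperones, small heat shock proteins, J-domain proteins, chaperonins and the cochaperones that work with them. They were taken from a written list of chaperone genes other than HSP70, most of them cytosolic or mitochondrial, with the polyubiquitin gene Ubb, and each symbol was matched exactly to the gene name column of the deposited tables. All 40 were found among the 25330 genes of these tables. The measurements were 6 stranded mRNA libraries of AML12 cells, a mouse hepatocyte line. The cells were wild-type (WT), which in the study names AML12 cells without KLF6 knockout. There were 3 libraries in the control group and 3 in the hypoxia/reoxygenation (H/R) group. Control cells were kept at 21% oxygen and 5% CO2. H/R cells were switched to medium without serum and glucose, held at 1% oxygen and 5% CO2 for 6 h, and then reoxygenated for 2 h. Both groups had been grown in DMEM/F12 with 10% fetal bovine serum, an ITS supplement and 40 ng/ml dexamethasone. The H/R group thus differed from control in its medium as well as in oxygen, and these 2 differences cannot be told apart. Nothing in the labels says that replicates were separate cultures, so p-values measure only the spread between these libraries, which may be technical.

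Heat shock factor 1 is held inactive by chaperones in unstressed cells and, when unfolded proteins draw those chaperones away, it forms trimers that bind repeated nGAAn units in the promoters of chaperone genes. HSP70 and its J-domain partners take up unfolded chains, HSP90 and its cochaperones mature kinases, nuclear receptors and other clients, and the chaperonins HSP60/HSP10 (in mitochondria) and CCT (in the cytosol) fold proteins inside a closed chamber. In liver, ischemia and reperfusion disturb protein folding, and induction of heat shock proteins is a well-known part of the response of hepatocytes to stress.

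Total counts were between 21026650 and 21854790 in the control libraries and between 20438746 and 21742441 in the H/R libraries, which the precision below rests on. Hepatocyte keratins were abundant, whereas Alb, Ttr and the apolipoproteins Apoa1 and Apob were low in both groups and lower in H/R. All 13 hepatocyte markers on the list were in the tables, and their summed level was 4240 to 4580 CPM (a library's counts scaled to a common total) in control and 6200 to 6230 in H/R. The summed level of 6 macrophage and leukocyte markers was 3.05 to 3.71 CPM in control and 8.61 to 10.1 in H/R, with Ptprc, Adgre1 and Clec4f at 3 counts or fewer in each library. Most of that difference was in Cd68, a lysosomal protein, with 16, 22 and 22 counts in control and 123, 113 and 137 in H/R libraries, and Lyz2 had at most 5 counts. The summed level of 4 of 5 bile duct cell markers was 1520 to 1710 CPM in control and 2570 to 2670 in H/R. The fifth was not analysed here. The keratins Krt19 and Krt7 made up most of this sum and were higher in H/R, as was the less abundant Sox9. Spp1 went the other way, with 4609, 4204 and 4795 counts in control and 2795, 2720 and 2794 in H/R libraries. The 5 endothelial markers summed to 0.141 to 0.458 CPM in control and 0.196 to 0.46 in H/R, and the 6 stellate cell and fibroblast markers to 0.686 to 1.38 and 0.685 to 1.24, with Pecam1, Cdh5, Kdr, Lyve1, Acta2, Lrat and Pdgfrb at 3 counts or fewer. Control replicate 1 stood apart in holding 52 to 61 counts each of Apoa2, Serpina1a, Fga and Fgb, which had at most 1 count in the other 5 libraries. The part of these marker and library differences in the results below was not tested. Results that depend on control replicate 1 are given with and without it.

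Of the 40 genes, 39 had enough counts to be tested, and 33 of them passed an adjusted p of 0.05 (quasi-likelihood F-test of edgeR, p-values adjusted by Benjamini-Hochberg), 16 higher and 17 lower after H/R. Such calls were common in the whole dataset, since 62.8% of the 14020 genes tested passed, 31.0% as higher and 31.8% as lower. Without control replicate 1, 31 of the 39 passed, 15 higher and 16 lower. In a bulk library, fewer cells that express a gene and less RNA per cell cannot be told apart. The 3 libraries of one group did not overlap those of the other for 34 of the 39 genes, 17 higher and 17 lower, against 65.9% of all genes tested.

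The changes were mostly small. The median size of the log2 fold change was 0.26 over the chaperone genes and 0.33 over all genes tested, and 31 of the 39 (79.5%) stayed within 0.5 on the log2 scale, against 68.1% of all genes. Only 2, the J-domain genes Dnajb1 and Dnajb4, also had a change of at least 2-fold, both higher, while 8.52% of all genes tested passed both thresholds (4.25% higher and 4.27% lower). The median log2 fold change was 0.01 for the chaperone genes and -0.01 for all genes. The median gene of the group had a mean normalised read count of 4474, against 358.6 over all genes tested, so small changes could be resolved. Together these 40 genes held 2.71% to 2.74% of the counts of a control library and 2.54% to 2.61% of an H/R library.

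The split of higher and lower calls moved with the scaling of the libraries. With scaling by the trimmed mean of M values (TMM), which was used throughout, the median of all genes was -0.01. With library totals it was -0.12, and 9 chaperone genes were then called higher and 20 lower. With upper quartile scaling (all-gene median -0.08) 11 were called higher and 18 lower. No gene called with TMM changed sign under these scalings, and the genes that lost or gained a call are named below.

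**Figure D1:**
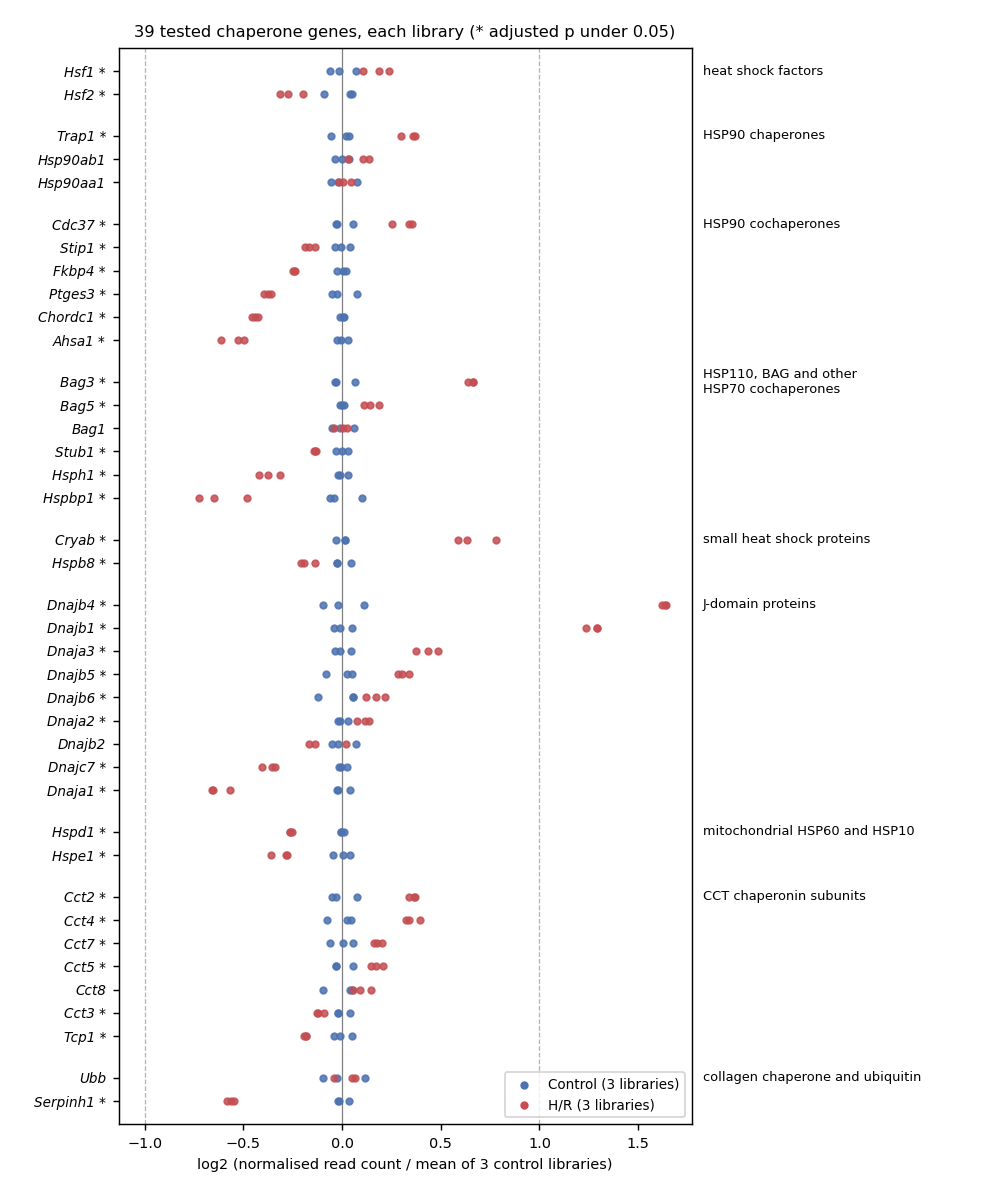
Normalised read count of 39 chaperone genes in each library, as log2 of the ratio to the mean of the 3 control libraries (x axis), ordered by role. Blue points are control and red points H/R libraries, dashed lines mark a 2-fold change, and a star marks genes at an adjusted p under 0.05; the red points of Dnajb1 and Dnajb4 alone lie beyond the 2-fold line.

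Promoter windows were available for 35 of the 40 genes from RefSeq (GRCm38.p6, the build of the tables), as 250 bases before and 50 bases after each annotated start. They were searched on both strands for 2 adjoining heat shock units (GAANNTTC or TTCNNGAA) and for 3 adjoining units (GAANNTTCNNGAA or TTCNNGAANNTTC, each of which holds 2 overlapping 2-unit matches). A 3-unit match was found for 5 of the 35 genes (14.3%), Hspe1, Hspd1, Chordc1, Hsph1 and Dnajb6, against 0.619% of 9201 tested genes with a window and 0.662% of 27025 genes in all. A 2-unit match was found for 15 of the 35 (42.9%), against 13.8% of tested genes. The chaperone genes had 1.43 windows each and the tested genes 1.28. Of the 5 genes with 3 units, Hspe1, Hspd1, Chordc1 and Hsph1 were lower after H/R and Dnajb6 was higher. The 3-unit match thus occurred in genes called in either direction with TMM. The only higher one, Dnajb6, changed by 0.17 on the log2 scale, and its call was lost with upper quartile scaling or library totals. Hspe1 and Hspd1 lie head to head and share one run of units, which is counted for both.

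Of the 7 windows printed, the first 4 hold 3 units, and the last 3 belong to the genes of this group that rose most among those with a window. Capitals mark 2-unit and 3-unit matches, and all are written 5' to 3' on the strand of the gene.
Hspe1: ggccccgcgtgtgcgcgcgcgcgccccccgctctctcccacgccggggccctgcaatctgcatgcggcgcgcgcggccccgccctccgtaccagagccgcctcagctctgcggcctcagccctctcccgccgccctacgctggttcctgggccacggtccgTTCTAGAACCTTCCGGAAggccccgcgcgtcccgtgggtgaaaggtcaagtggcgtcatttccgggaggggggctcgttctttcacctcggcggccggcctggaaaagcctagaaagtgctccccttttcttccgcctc
Chordc1: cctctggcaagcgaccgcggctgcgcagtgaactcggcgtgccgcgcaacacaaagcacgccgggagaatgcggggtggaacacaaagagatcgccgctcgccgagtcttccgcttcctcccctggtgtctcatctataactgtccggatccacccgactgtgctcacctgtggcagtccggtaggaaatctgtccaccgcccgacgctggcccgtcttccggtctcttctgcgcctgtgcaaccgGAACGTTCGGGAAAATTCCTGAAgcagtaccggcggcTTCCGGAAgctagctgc
Hsph1: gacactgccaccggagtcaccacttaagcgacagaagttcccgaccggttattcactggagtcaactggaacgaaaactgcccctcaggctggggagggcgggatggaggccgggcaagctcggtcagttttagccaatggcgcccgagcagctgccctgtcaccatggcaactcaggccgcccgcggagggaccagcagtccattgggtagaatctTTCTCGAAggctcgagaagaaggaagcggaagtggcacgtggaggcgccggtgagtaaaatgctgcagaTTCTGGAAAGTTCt
Dnajb6: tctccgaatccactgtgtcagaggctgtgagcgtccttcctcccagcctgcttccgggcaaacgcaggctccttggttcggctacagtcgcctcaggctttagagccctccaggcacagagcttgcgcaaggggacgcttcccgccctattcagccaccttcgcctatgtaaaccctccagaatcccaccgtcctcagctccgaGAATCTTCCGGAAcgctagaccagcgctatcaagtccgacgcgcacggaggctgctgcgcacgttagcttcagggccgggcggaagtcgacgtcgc
Dnajb1: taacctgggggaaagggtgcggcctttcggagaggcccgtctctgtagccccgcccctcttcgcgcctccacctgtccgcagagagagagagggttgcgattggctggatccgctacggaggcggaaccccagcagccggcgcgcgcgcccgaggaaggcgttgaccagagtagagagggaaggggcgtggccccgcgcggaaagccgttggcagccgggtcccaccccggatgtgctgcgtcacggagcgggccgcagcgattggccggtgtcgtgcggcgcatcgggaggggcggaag
Dnajb4: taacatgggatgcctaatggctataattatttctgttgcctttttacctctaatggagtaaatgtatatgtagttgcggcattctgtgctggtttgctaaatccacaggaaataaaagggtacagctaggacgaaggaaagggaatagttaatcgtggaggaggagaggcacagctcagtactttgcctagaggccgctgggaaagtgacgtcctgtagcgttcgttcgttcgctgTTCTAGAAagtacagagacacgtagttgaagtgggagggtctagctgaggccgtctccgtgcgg
Bag3: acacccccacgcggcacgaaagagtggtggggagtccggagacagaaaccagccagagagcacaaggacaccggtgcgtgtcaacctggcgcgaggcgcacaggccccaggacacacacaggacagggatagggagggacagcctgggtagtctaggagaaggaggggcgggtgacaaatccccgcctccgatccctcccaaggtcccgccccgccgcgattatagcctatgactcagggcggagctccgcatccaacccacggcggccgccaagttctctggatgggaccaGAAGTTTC
The first window (Hspe1, chr1:55087898-55088197, + strand) held a run of 4 units, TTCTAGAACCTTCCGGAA, 89 to 72 bases before the start. That of Chordc1 (chr9:18292017-18292316, + strand) held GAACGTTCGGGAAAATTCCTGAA across its start and a separate 2-unit match further on. That of Hsph1 (chr5:149636287-149636586, - strand) held 3 units after its start (TTCTGGAAAGTTC) and a 2-unit match before it, and that of Dnajb6 (chr5:29735648-29735947, + strand) held GAATCTTCCGGAA. Neither of the 2 windows of Dnajb1 (printed, chr8:83607925-83608224, + strand) held these letters. Dnajb4 had TTCTAGAA 14 to 7 bases before its downstream start (chr3:152193796-152194095, - strand) and no match at its upstream start, and Bag3 (chr7:128523333-128523632, + strand) had a 2-unit match after its start. A core of the hypoxia response element (ACGTG or CACGT) was in a window of 11 of the 35 genes (31.4%), against 29.6% of tested genes. Among the 11 were Dnajb4, in its printed window, and Dnajb1, only in its window that is not printed. A match describes the letters of a window and not a bound site.

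The 2 heat shock factors moved in opposite directions by small amounts. Hsf1, the master regulator of the heat shock response (chr15:76477445-76500972), had normalised read counts of 514, 498 and 546 in control and 560.1, 591 and 613 in H/R libraries. The groups did not overlap, but the lowest H/R library stood close to the highest control library. The log2 fold change was 0.18 ± 0.07 (SE, edgeR adjusted p = 0.0187). The call was lost without control replicate 1 (edgeR adjusted p = 0.0525), control replicate 2 (0.0762), H/R replicate 2 (0.0563) or H/R replicate 3 (0.0893), and with library totals (0.363). It was also lost with DESeq2 (Wald test, adjusted p = 0.0683) and with limma-trend on log2 RPKM (adjusted p = 0.338 and 0.336 for pseudocounts of 1 and 0.1). Hsf2, a relative of Hsf1 that forms mixed trimers with it, had counts of 346, 378 and 381 in control and 305, 297 and 321 in H/R libraries, all of them lower. Its log2 fold change was -0.26 ± 0.08 (edgeR adjusted p = 0.00614), and the call held without any single library (highest adjusted p = 0.0308) but not with DESeq2 (0.0569). Of 5 other heat shock factors and regulators of these factors, 3 were tested, and their log2 fold changes lay between -0.40 and 0.06 (median -0.22) and missed the threshold.

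The cytosolic HSP90 genes kept nearly their control level. Hsp90aa1, the stress-inducible HSP90 of the cytosol (chr12:110690605-110702728), had normalised read counts of 51754, 55326 and 50541 in control and 54148, 52666 and 51939.6 in H/R libraries. The 3 H/R values lay inside the control range. Its log2 fold change was 0.01 ± 0.05 (edgeR adjusted p = 0.859) and turned to -0.06 with upper quartile scaling and to -0.09 with library totals (adjusted p = 0.0444). Hsp90ab1, the constitutive cytosolic HSP90 (chr17:45567775-45573271), was the most abundant of the 40 per length, at 3975 RPKM (reads per kilobase of exon, scaled to the library total) in control and 3936 in H/R. Its normalised read counts were 243160.3, 249529 and 237722 in control and 267833, 261663 and 248342 in H/R libraries, so that the lowest H/R library lay inside the control range. The log2 fold change was 0.09 ± 0.05 (edgeR adjusted p = 0.0790) with TMM and -0.01 with library totals. The test was passed without control replicate 2 (0.0418) or H/R replicate 3 (0.0225), with DESeq2 (0.0170), and in the fit with a replicate block (0.0344).

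Per length, Hsp90aa1 supplied 13.97%, 14.47% and 13.96% of the RPKM of the cytosolic HSP90 pair in control and 13.36%, 13.31% and 13.76% in H/R libraries. This share needs no scaling between libraries. Each H/R value was below each control value, with means of 14.1% ± 0.292 (SD, n = 3) and 13.5% ± 0.246 (n = 3) and a difference of -0.653 percentage points (exact two-sided permutation p = 0.1, the smallest that 3 against 3 libraries allow). Trap1, the mitochondrial HSP90, had counts of 2263, 2237 and 2128 in control and 2713, 2857 and 2838 in H/R libraries. All H/R values were above control, and its log2 fold change was 0.34 ± 0.04 (edgeR adjusted p = 2.79e-08).

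Among the 6 HSP90 cochaperones, 5 fell and 1 rose. The largest change was in Ahsa1, the activator of the HSP90 ATPase (chr12:87266746-87273997), with counts of 5065, 5184 and 4993 in control and 3525, 3597 and 3319 in H/R libraries. H/R libraries held 68.5% of the control mean, and the groups were far apart. The log2 fold change was -0.55 ± 0.04 (edgeR adjusted p = 2.16e-13). Ahsa1 shares 64 exon bases (0.0475 of its exon length) with AC151967.1 on the same strand, which had 1563 to 2657 counts a library. Strand cannot separate reads of this shared stretch, and its part in the change of Ahsa1 was not tested. Chordc1 (a CHORD-domain HSP90 partner, -0.44), Ptges3 (p23, which stabilises client complexes, -0.38), the immunophilin Fkbp4 (-0.24) and Stip1 (HOP, which links HSP70 to HSP90, -0.16) also fell on the log2 fold change scale. Cdc37, which delivers kinases to HSP90, rose by 0.32 on that scale (edgeR adjusted p = 2.34e-07). Within each library, the RPKM of Cdc37 was 0.432 to 0.468 times that of Ahsa1 in control and 0.811 to 0.821 times in H/R, a pair chosen after the values were seen. Of 14 other HSP90 cochaperones tested, 2 rose, 9 fell and 3 did not pass, with a median log2 fold change of -0.21. The lowest were Cacybp (-0.82) and Ttc4 (-0.81), and the highest was Sugt1 (0.36).

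The 6 HSP110, BAG and related HSP70 cochaperones split, with 2 higher, 3 lower and 1 not passing. Bag3, which couples HSP70 and small HSPs to selective autophagy (chr7:128523616-128546981), had counts of 1288, 1285 and 1379 in control and 2084, 2085 and 2047 in H/R libraries. The H/R libraries were close together and well above control. The log2 fold change was 0.65 ± 0.05 (edgeR adjusted p = 3.23e-14). Bag5, a nucleotide exchange factor, was 0.15 higher on this scale, a call lost without H/R replicate 2 (edgeR adjusted p = 0.0677) or with library totals (0.502). Bag1, another exchange factor of the BAG family, had a log2 fold change of -0.00288 (edgeR adjusted p = 0.957), and with library totals it passed as lower (0.0158). Hspbp1, a nucleotide exchange factor of HSP70 (-0.62), Hsph1, the HSP110 exchange factor and disaggregase (-0.37), and Stub1, the ubiquitin ligase CHIP (-0.14), fell. Stub1 shares 0.409 of its exon length with Jmjd8 on the opposite strand, and reads of the 2 genes cannot be told apart where strand was not used in counting, which the sources used here do not state. The RPKM of Bag3 was 0.610 to 0.673 times that of Hsph1 in control and 1.23 to 1.35 times in H/R libraries, a raised and a lowered gene paired after their values were seen. Of 7 other BAG proteins and exchange factors tested, 3 rose (Grpel2 by 0.56 and Bag6 by 0.15 among them), 1 fell (Bag2, -0.33) and 3 did not pass.

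Of the 3 small heat shock proteins, Cryab rose and Hspb8 fell, and Hspb1 was barely detected. Cryab, αB-crystallin, which holds unfolded proteins and binds the cytoskeleton (chr9:50751325-50756636), had counts of 614.5, 615 and 595 in control and 942, 912 and 1045 in H/R libraries. No control library came near the H/R values, and the log2 fold change was 0.67 ± 0.06 (edgeR adjusted p = 9.47e-12). Part of its exon length (0.170) is shared with Hspb2 on the other strand, which had at most 1 count. Hspb8, the partner of Bag3, changed by -0.18 (edgeR adjusted p = 0.00465). Hspb1 (HSP27), which is strongly induced by heat in many cells, had 1, 1 and 1 raw counts in control and 3, 0 and 3 in H/R libraries, at or under a floor of 3 counts a library. It was left untested, no fold is given, and it was named after its values were seen. A change in Hspb1 was not detectable at this depth. Of 6 other genes listed with the small heat shock genes and found in the tables, 2 were tested and both were higher. These were Hspb11 (0.37, at only 61 to 83 raw counts a library) and Hspb6 (0.23).

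**Figure D2:**
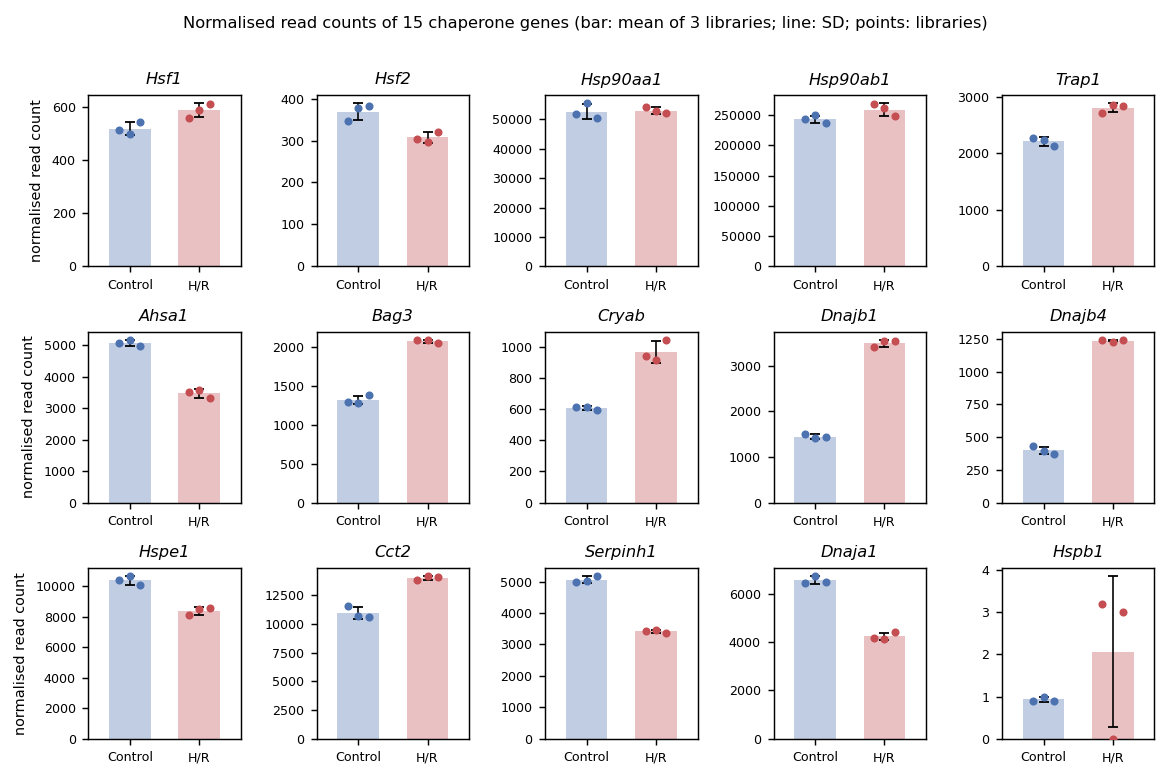
Normalised read counts (y axis, linear and starting at 0) of 15 chaperone genes in the control and H/R groups. Bars are means of 3 libraries, lines are SD and points are single libraries; the groups overlap for Hsp90aa1, Hsp90ab1 and Hspb1 and are separate for the other 12.

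J-domain proteins, which deliver unfolded chains to HSP70 and start its ATPase cycle, held the largest changes in both directions. Dnajb4, a class B J-domain protein (chr3:152178511-152210302), had counts of 431, 393 and 374 in control and 1243, 1229.5 and 1239 in H/R libraries. The 3 H/R libraries were close together, at 3.10 times the control level. The log2 fold change was 1.63 ± 0.06 (edgeR adjusted p = 4.13e-22). Dnajb1 (HSP40), the J-domain protein that acts with inducible HSP70 in disaggregation and in the feedback on Hsf1 (chr8:83608193-83612653), had counts of 1502, 1407 and 1436 in control and 3409, 3544 and 3544 in H/R libraries. It reached 2.42 times control, a log2 fold change of 1.27 ± 0.04 (edgeR adjusted p = 8.71e-23). Both calls and the 2-fold change held without any single library, with log2 fold changes of 1.59 to 1.69 for Dnajb4 and 1.251 to 1.299 for Dnajb1.

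Dnaja1, a class A J-domain protein, was the gene that fell most of the 39 and was added to those described by library after its values were seen. Its counts were 6452, 6747 and 6471.5 in control and 4163, 4147 and 4421 in H/R libraries, with no overlap. The log2 fold change was -0.63 ± 0.04 (edgeR adjusted p = 3.23e-15), and 0.108 of its exon length is shared with other genes. Compared per length within each library, in pairs chosen after the values were seen, the order of Dnajb1 and Dnaja1 was opposite in the 2 groups. The RPKM of Dnajb1 was 0.562 to 0.627 times that of Dnaja1 in control and 2.16 to 2.30 times in H/R. For Dnajb4 the ratio to Dnaja1 went from between 0.0569 and 0.0657 to between 0.276 and 0.294.

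The other 6 J-domain genes changed less. Dnaja3, the mitochondrial J-domain protein, had a log2 fold change of 0.43 and Dnajc7, which carries TPR repeats that bind HSP70 and HSP90, one of -0.37. Dnajb5 (0.31), Dnajb6, a suppressor of aggregation (0.17), and Dnaja2 (0.11) passed as higher. The call of Dnajb5 was lost without control replicate 1 (edgeR adjusted p = 0.0748) or H/R replicate 2 (0.0557), and that of Dnaja2 without control replicate 3 (0.0537), H/R replicate 1 (0.115) or H/R replicate 2 (0.0837). With library totals, Dnajb5, Dnajb6 and Dnaja2 did not pass. Dnajb2, a neuronally enriched J-domain protein, did not pass either (-0.09, edgeR adjusted p = 0.188), but passed as lower with upper quartile scaling (0.0201) or library totals (0.00634). Of 32 other J-domain genes tested, 11 rose, 11 fell and 10 did not pass, with a median of -0.08. The highest were Dnajb9, an ER-lumen J-domain protein (1.30), and Dnajc5, cysteine string protein (0.48). The lowest were Dnajc22 (-1.22) and Dnajc12 (-0.90, at only 10 to 24 raw counts a library).

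**Figure D3:**
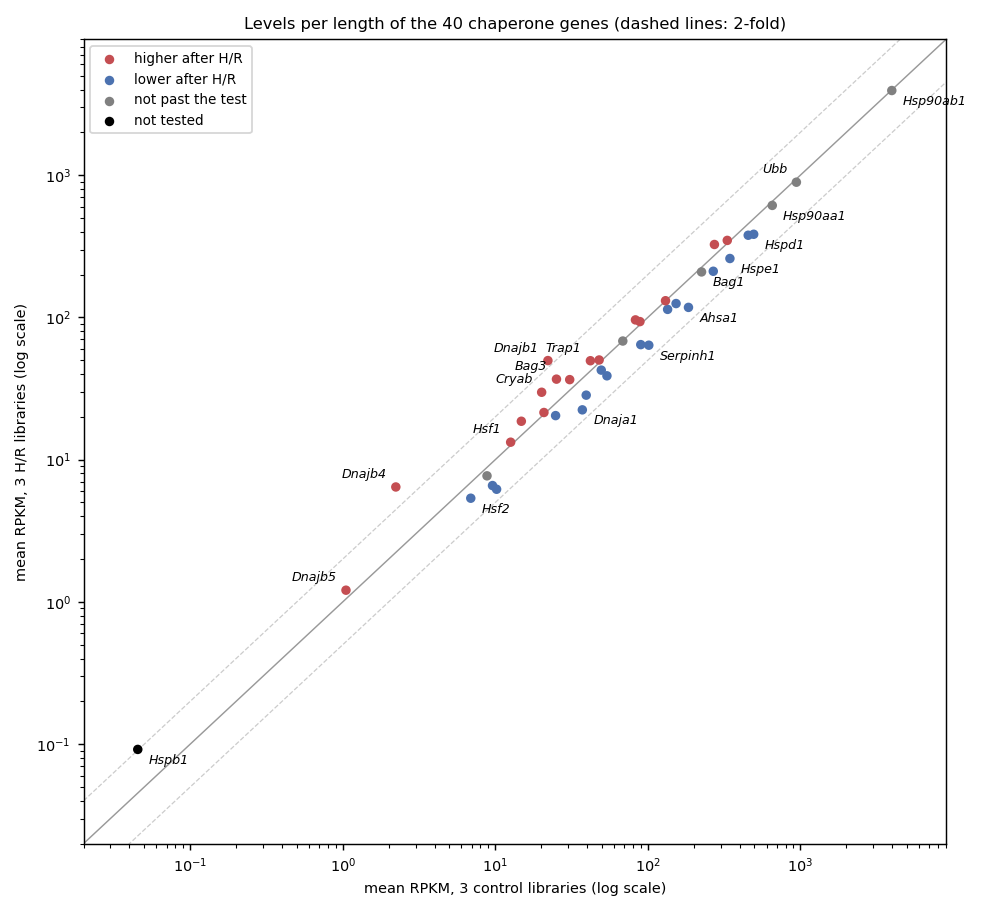
Mean RPKM of the 40 genes in 3 H/R libraries (y axis) against 3 control libraries (x axis), both on a log scale. The solid line marks equal levels and the dashed lines a 2-fold change. Levels run from 0.0453 RPKM for Hspb1 to 3975 RPKM for Hsp90ab1 in control, and among tested genes only Dnajb1 and Dnajb4 leave the band.

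The mitochondrial chaperonin pair fell together. Hspe1 (HSP10), the lid of the chamber (chr1:55088132-55091307), had counts of 10414, 10684 and 10087.5 in control and 8092, 8544 and 8561 in H/R libraries. The groups were separate, with a log2 fold change of -0.31 ± 0.04 (edgeR adjusted p = 1.65e-07). Hspd1 (HSP60), which forms the rings (chr1:55077835-55088243), had a log2 fold change of -0.26 ± 0.04 (edgeR adjusted p = 4.22e-06). The RPKM of Hspd1 was 1.40 to 1.47 times that of Hspe1 in control and 1.45 to 1.54 times in H/R libraries, and these ranges overlap. The 2 genes share 112 bases of exon sequence on opposite strands, and a processed copy of Hspd1, Hspd1-ps3, was listed with 118 to 248 counts. Of 11 mitochondrial proteases and further mitochondrial chaperones, 7 rose (Grpel2 by 0.56 and Hspa9 by 0.41 on the log2 scale among them), 2 fell (Clpp, -0.20, and Spg7, -0.15) and 2 did not pass, with a median of 0.27. The log2 fold changes of Hspd1 and Hspe1 were both below the lowest of these 11.

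The 7 listed subunits of the CCT chaperonin, whose rings are built from different but related subunits, did not change as a block. Cct2 rose most, with counts of 11550.0, 10735 and 10572 in control and 13837, 14164 and 14086 in H/R libraries. Its H/R libraries were all above control, and its log2 fold change was 0.36 ± 0.04 (edgeR adjusted p = 1.57e-08). Cct4 (0.35), Cct7 (0.18) and Cct5 (0.17) were also higher, Tcp1 (-0.19) and Cct3 (-0.11) were lower, and Cct8 was at 0.10 (edgeR adjusted p = 0.0528). Cct5 and Cct7 did not pass with library totals (adjusted p = 0.143 and 0.119). The call of Cct3 was lost without control replicate 1 (0.0988), H/R replicate 1 (0.0698) or H/R replicate 3 (0.0587), and Cct8 passed without control replicate 1 (0.0375), control replicate 3 (0.0285) or H/R replicate 1 (0.0436), and in the fit with a replicate block (0.0389).

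Shares within a library do not depend on scaling. Of the summed RPKM of the 7 subunits, Cct2 held 26.9% to 27.8% in control and 31.2% to 31.5% in H/R libraries, and Cct4 3.01% to 3.24% and 3.44% to 3.62%. Tcp1 went the other way, from between 15.3% and 15.5% to between 11.8% and 12.2%, and Cct3 went from between 4.91% and 5.04% to between 4.07% and 4.12%. Tcp1 shares 0.169 of its exon length with Acat3, Mrpl18 and Gm26130. Cct5, at 32.89% to 33.85% of the sum over the 6 libraries, Cct7 and Cct8 overlapped between groups. Of 9 prefoldin and other CCT-related genes tested, 3 rose (Pdcl3, 0.39, and Pfdn5, 0.18, among them), 3 fell (Pfdn6, -0.49, and Pdcl, -0.29, among them) and 3 did not pass.

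Serpinh1 (HSP47), the collagen chaperone of the endoplasmic reticulum (chr7:99345376-99353239), fell. It had counts of 4990.0, 5008 and 5185 in control and 3430.3, 3458 and 3377 in H/R libraries. H/R libraries held 67.6% of the control mean, a log2 fold change of -0.56 ± 0.04 (edgeR adjusted p = 3.73e-14). Ubb, a polyubiquitin gene and a heat shock target, had a log2 fold change of 0.03 ± 0.05 (edgeR adjusted p = 0.670) with TMM and of -0.08 with library totals, and its groups overlapped.

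**Figure D4:**
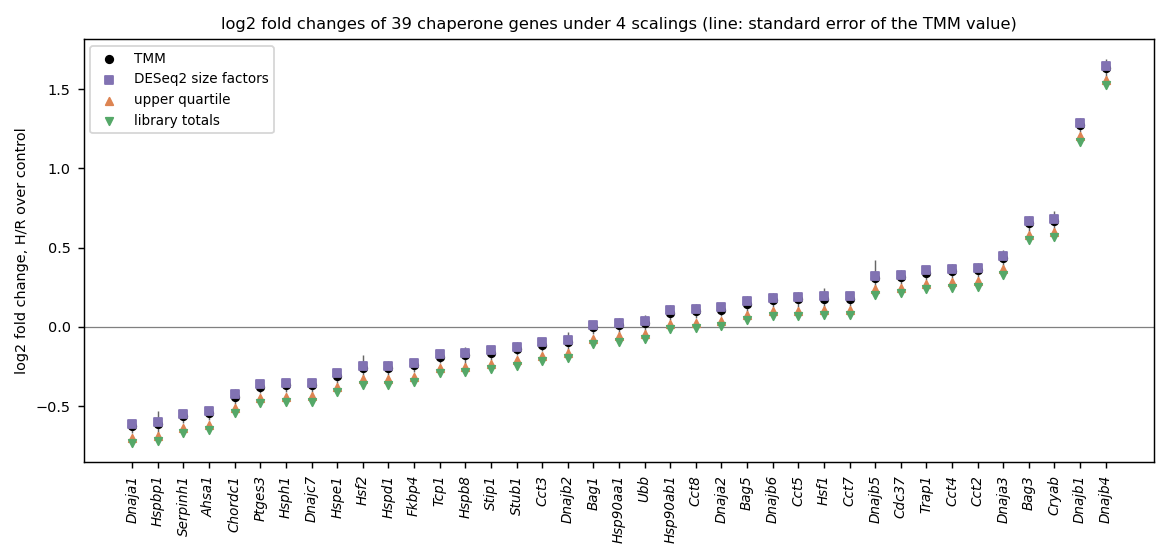
log2 fold change (H/R over control, y axis) of 39 chaperone genes, ordered by the TMM value, under 4 scalings of the libraries. Grey lines are the standard error of the TMM value. Library totals lie lowest, and the genes between Bag1 and Cct8 cross 0 under some scaling.

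The HSP70 family was not part of this group of 40 genes. Of 12 HSP70 genes tested, 6 rose, 3 fell and 3 did not pass, and 3 passed both thresholds. Hspa1a and Hspa1b, the stress-inducible HSP70 genes, had log2 fold changes of 6.28 and 6.68. In control libraries Hspa1a had only 5, 5 and 5 raw counts and Hspa1b 11, 3 and 8, so the sizes of these changes are imprecise. In H/R libraries Hspa1a had 328, 333 and 428 and Hspa1b 639, 594 and 854. Since the 2 genes are near-identical copies, their reads can be split in an uncertain way. Hspa5, the HSP70 of the endoplasmic reticulum, was at 1.30, and Hspa8, the constitutive cytosolic HSP70, fell by 0.19 on the log2 scale. Of 11 other genes named as Hsf1 targets, among them Hspa1a, Hspa1b and Hspa8, 7 rose, 3 fell (with Mrpl18, -0.88, and Cacybp, -0.82, lowest) and 1 did not pass.

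**Figure D5:**
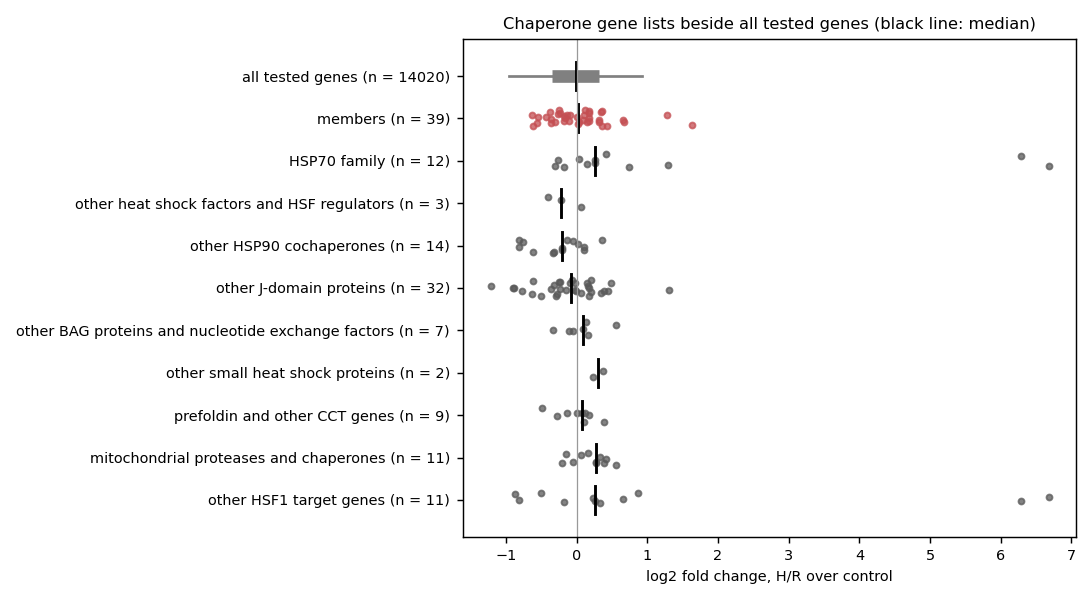
log2 fold change (H/R over control, x axis) of the 39 chaperone genes in red and of 9 related gene lists in grey, with 1 point a gene and the median as a black line. For all genes tested the thick bar spans the middle 50% and the thin line the 5th to 95th percentile (-0.95 to 0.92). Hspa1a and Hspa1b stand beyond 6 in the HSP70 and Hsf1 target lists, and a gene can be in more than 1 list.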

How the data were processed

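Total RNA of 6 AML12 libraries was sequenced with paired ends after stranded mRNA library construction. Per the labels and the study's methods, reads were trimmed with Trimmomatic 0.36, mapped with an aligner whose name is printed as STRA to GRCm38, and counted per gene with featureCounts (Subread 1.5.1), and edgeR 3.12.1 was used by the authors. The gene annotation and the strand setting of the counting are not given in the sources used here. The deposited counts are raw whole numbers for each gene. RPKM values, also deposited by the authors, were recomputed here from counts, exon lengths and library totals and differed by a relative error of at most 1.13e-06. The tables hold 25330 genes, every one with a count in some library.

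The counts of all genes were fitted in edgeR 4.0.16 under R 4.3.3 (filterByExpr, TMM, robust estimateDisp, robust glmQLFit and glmQLFTest) and Benjamini-Hochberg adjustment over 14020 genes. Standard errors were derived from the F statistic. To give normalised read counts, each count was scaled to the mean effective size of the 6 libraries. Genes past both thresholds had an adjusted p under 0.05 and a fold change of at least 2, as in the study's methods. All pairs of replicates differed beyond sampling noise (chi-square statistic over its degrees of freedom, 2.12 to 14.96). Same-numbered replicates did not deviate together (correlations -0.027, 0.005 and -0.014), so the replicate number was used only as an alternative.

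Alternatives were DESeq2 1.42.0, upper quartile scaling, library totals, no filter, a minimum of 10 counts in each of the libraries, the replicate block, non-robust dispersions, limma-trend (limma 3.58.1) on log2(RPKM + 1) and log2(RPKM + 0.1), leaving out each library, a fold threshold of 1.5 (also with glmTreat) and, added after seeing the data, leaving out genes that share exon sequence. Values by library are given for members past both thresholds, for Hsf1, Hsf2, Hsp90aa1 and Hsp90ab1, and for the member with the largest change in each role, with Dnaja1 and Hspb1 added after their values were seen. In the related lists, at most the 2 largest passing changes in each direction are named, with Hspa1a, Hspa1b and Hspa8, and the result of 1 such gene is not reported here. The genes and lists were chosen with earlier results of these data known. Total counts of 20438746 to 21854790 per library set the counting precision, and a gene at 3 counts or fewer was taken as at the floor. Promoter windows came from RefSeq (GRCm38.p6), and coordinates are counted from 1. The 5 members without a window are Hsf1, Hsp90aa1, Hsp90ab1, Cryab and Cct4.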

Additional observations from a re-analysis of the deposited data

How the results depend on the processing

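The number of chaperone genes at an adjusted p under 0.05 was 33 and lay between 28 and 35 under the alternatives that kept all 39, with 31 (15 higher, 16 lower) by DESeq2, 28 (9 higher, 19 lower) by limma-trend on log2 RPKM with a pseudocount of 1 or of 0.1, and 35 (18 higher, 17 lower) with the replicate block, which added Hsp90ab1 and Cct8. Leaving out 1 library gave 30 to 33, with the lowest, 30 (12 higher, 18 lower), without H/R replicate 2. Leaving out genes that share exon sequence, an alternative chosen after seeing the data, left 26 members to test, of which 21 passed (11 higher, 10 lower). Dnajb1 and Dnajb4 were the 2 genes past both thresholds, and the count was 2 under each alternative at 2-fold, including the replicate block and each library left out. With glmTreat, which tested against a 1.5-fold change and set no 2-fold threshold, the count was also 2. A fold threshold of 1.5 gave 6 (4 higher, 2 lower). The difference in the Hsp90aa1 share of cytosolic HSP90 was -0.787 points by counts and -0.794 to -0.485 points with 1 library left out (exact permutation p = 0.2 without control replicate 2). With the replicate block it was -0.653 points (exact sign-flip p = 0.25, the smallest that this test allows here).

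Log2 fold changes changed sign for 5 genes, none of which had passed the test. With upper quartile scaling Hsp90aa1 was at -0.05996 and Ubb at -0.04363. With library totals Hsp90aa1 was at -0.09447, Hsp90ab1 at -0.0143, Cct8 at -0.006476 and Ubb at -0.07799. With limma-trend and a pseudocount of 1 these 4 were at -0.09333, -0.01431, -0.005216 and -0.07633, and with a pseudocount of 0.1 at -0.09346, -0.01432, -0.00527 and -0.07641. Bag1 was at 0.01126 with DESeq2. With 1 library left out, Hsp90aa1 ranged from -0.01663 to 0.0481, Bag1 from -0.02812 to 0.02785 and Ubb from -0.01995 to 0.08725. Beside the lost calls named with each gene, upper quartile scaling lost Hsf1, Bag5, Dnaja2, Dnajb5 and Dnajb6, and library totals lost these and Cct5 and Cct7. Library totals added Hsp90aa1, Bag1 and Dnajb2 as lower. In all, 42 values for single genes fell below the threshold and 16 passed it newly, with the same sign, and 506 kept sign and side. The cause of these differences was not tested beyond the construction of each alternative.

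With 3 libraries a group the share test could not go below 0.1, or below 0.25 with the replicate block. Counting error is larger for genes with fewer counts. Hspb1 had at most 3 raw counts a library, Dnajb5 127 to 155, Hspbp1 233 to 448 and Hsf2 275 to 405. Dnajb5 (0.12), Hspbp1 (0.09) and Hsf2 (0.08) had the largest standard errors of the log2 fold change among the tested members. RPKM values carry the scale of the library totals.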
